A study of Homo sapiens with 4 samples.

Results

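The complement components and regulators described here are 9 genes, C3, C1R, C1S, CFB, CFI, CD46, CD55, CD59 and SERPING1, out of 29387 genes listed in all 4 raw count tables. They were chosen by name, with their read counts in the invasive and control libraries already known, so their differences between invasive and control populations are given as a description with no test. The libraries come from U87MG, an established human glioblastoma cell line, sequenced as polyadenylated RNA. The 2 groups have 2 libraries each: highly invasive populations (invasive 1 and invasive 2, titled brain invasive clones) and poorly invasive control populations (control 1 and control 2). For all 4, parental cells were left to invade organotypic brain slices, kept in a medium for neural stem cells to which FGF and EGF were added. After 1 week the populations were isolated and grown on in culture for 3 to 5 days. Invasive 1 is set against control 1 (pair 1) and invasive 2 against control 2 (pair 2), as the series' design text states. Each population gave 1 library, so p-values rest on how the difference varied between the 2 pairs and on spread borrowed across genes. They do not reach beyond these populations and their culture.

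Complement is a cascade of plasma and tissue proteins. In the classical route the protease C1S, in a complex with the protease C1R, cleaves C4 and C2. In the alternative route factor B (CFB) pairs with C3, and both routes cleave C3. CFI, SERPING1 and the membrane proteins CD46, CD55 and CD59 hold the cascade back on host cells. The liver makes most plasma complement, and in the brain astrocytes, microglia and tumour cells can make components themselves.

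The libraries held 15466900 counts (invasive 1), 17817756 (control 1), 13829871 (invasive 2) and 15444104 (control 2). Levels are CPM, counts scaled to the library's total count, and where genes are set against each other, CPM per kilobase of exon. Of the glioma line markers, VIM and CD44 were abundant (at least 113467 and 24032 counts in each library), and CDKN2A, which is deleted in this line, had 2 counts in invasive 1 and 0 in the others. Of the brain cell markers, 3 of 8 for microglia, 3 of 7 for astrocytes, 1 of 5 for endothelium, 3 of 5 for neurons and 0 of 4 for oligodendrocytes passed the filter on low counts. Those that passed include GJA1 of astrocytes (2967 to 4807 counts), SNAP25 of neurons (364 to 622), CSF1R of microglia (140 to 379) and KDR of endothelium (120 to 353). Among the rest, PTPRC of leukocytes had 0 or 1 counts per library, and P2RY12 of microglia, AQP4 of astrocytes, CLDN5 of endothelium and MOG of oligodendrocytes had 0 in all 4. From which species the slices came was not stated in what was used here, and reads of another species need not appear in these counts.

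Promoter sequences are shown for C1R, which like C3 was highest in control 2. They are RefSeq windows of GRCh38.p14, from 250 bases before to 50 after an annotated start, written along the gene's strand, with motif matches in capitals. Windows were found for 6 of the 9 genes. None was found for C3, C1S and SERPING1.
C1R, upstream start, chr12:7092396-7092695, minus strand: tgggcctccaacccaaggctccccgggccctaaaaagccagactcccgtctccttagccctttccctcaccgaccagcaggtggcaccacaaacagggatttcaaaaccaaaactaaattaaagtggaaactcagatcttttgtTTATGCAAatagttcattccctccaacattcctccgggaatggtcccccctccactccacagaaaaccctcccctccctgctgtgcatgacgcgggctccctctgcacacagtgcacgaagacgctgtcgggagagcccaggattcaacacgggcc
C1R, downstream start, chr12:7091844-7092143, minus strand: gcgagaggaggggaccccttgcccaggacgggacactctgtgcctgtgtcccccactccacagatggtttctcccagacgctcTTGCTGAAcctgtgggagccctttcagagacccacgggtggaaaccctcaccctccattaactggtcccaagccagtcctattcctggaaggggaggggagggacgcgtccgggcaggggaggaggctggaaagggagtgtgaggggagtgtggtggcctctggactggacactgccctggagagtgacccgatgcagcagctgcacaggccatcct
The motifs searched, on both strands, were TTGCNNAA, a core of C/EBP sites, and the kB consensus of NF-kB. They occur in 10.5% and 5.91% of the 35116 promoter windows of the same length. Each C1R window has 1 C/EBP match, from base -106 to -99 relative to the upstream start and from -167 to -160 relative to the downstream one. Of the 4 CD59 windows, 1 held 2 C/EBP matches. CFB, CFI, CD46 and CD55 windows had no match to either motif, and no member's window matched the kB consensus. These matches are letters in a window and were not tied to any measurement of binding.

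Among complement genes the U87MG libraries had counts of C1R, C1S and C3 but few or none assigned to C4A, C4B, C2 or CFB. Per length, CD59 was the most abundant member in invasive 1, control 1 and invasive 2, at 63.9, 63.7 and 68.7 CPM per kb. In these 3 libraries CD46 came next, at 15.1, 15.0 and 15.98 CPM per kb. C1R, C1S, C3, CD55 and CFI lay between 2.14 and 7.44 CPM per kb in the same 3 libraries. Control 2 differed in that order: C3 had 96.3 CPM per kb there, above CD59 at 55.8. CFB stayed at or under 0.116 CPM per kb and SERPING1 at or under 0.0180 in all 4 libraries. Ranked per length among 28848 genes with an annotated exon length, C3 stood at place 348 in control 2, against 5899 to 7341 in the other 3 libraries.

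**Figure D1:**
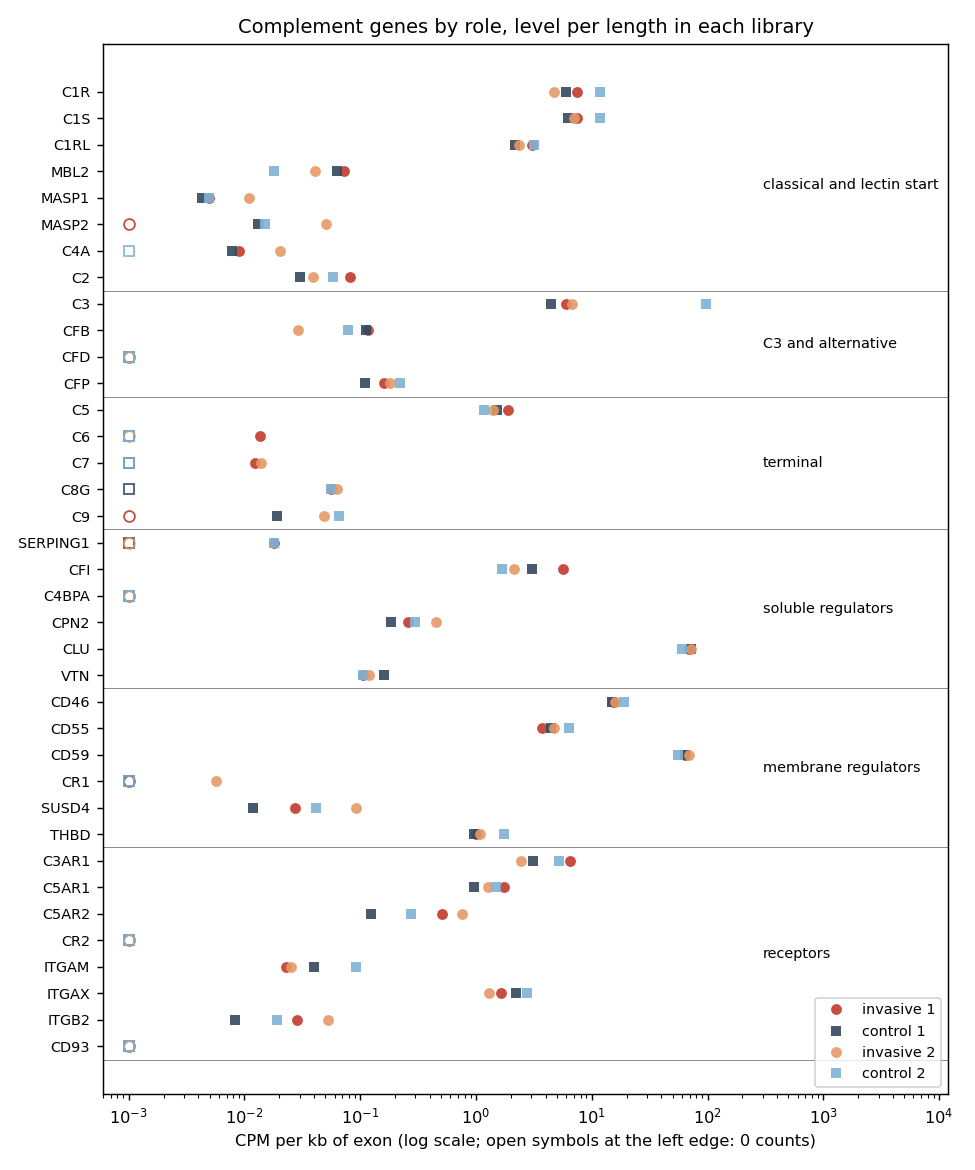
Level of complement genes per length, in CPM per kb of exon on a log scale, by role from the start of the cascade (top) to the receptors (bottom); circles are invasive and squares control libraries, 1 point a library, and open symbols at the left edge are 0 counts. C3 of control 2, at 96.3 CPM per kb, stands to the right of the other C3 points at 4.44 to 6.81, while C4A, C2, CFB, CFD and most terminal genes sit far to the left.

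C1R and C1S encode the 2 proteases of the C1 complex, the first to act in the classical route. C1R had 43.6 CPM in invasive 1 and 27.5 CPM in invasive 2, against 35.3 CPM in control 1 and 69.0 CPM in control 2. The groups overlapped, with control 2 highest and invasive 2 lowest. Relative to its own control, C1R was 1.24 times as high in invasive 1 (95% counting interval 1.11 to 1.38) and 0.399 times in invasive 2 (0.354 to 0.449). Here and below, such intervals cover counting error in 1 library against 1, and no replicate check. C1S had 48.1 CPM in invasive 1 and 45.4 CPM in invasive 2, against 40.5 CPM in control 1 and 76.3 CPM in control 2. Control 2 again stood apart, at 1.88 times control 1 (1.71 to 2.07), while invasive 2 was 0.944 times invasive 1 (0.848 to 1.05), an interval that includes 1. Within pairs, C1S was 1.19 times its control in invasive 1 (1.07 to 1.32) and 0.595 times in invasive 2 (0.540 to 0.656).

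The pair did not keep 1 ratio in every library. C1R is on chromosome 12 at 7080209 to 7092607 and C1S beside it at 6988259 to 7071032 (GRCh38, positions as deposited). For each C1S count there were 0.907 C1R counts in invasive 1 (exact 95% interval 0.816 to 1.01), 0.607 in invasive 2 (0.533 to 0.690), 0.871 in control 1 (0.782 to 0.971) and 0.905 in control 2 (0.832 to 0.984). Invasive 2 lay below the other 3 libraries, and its interval touched none of theirs. Corrected for exon length, the C1R level was 0.996 and 0.666 times that of C1S in invasive 1 and 2, against 0.957 and 0.994 times in control 1 and 2. C1R overlaps C1RL, a related protease gene, and C1S overlaps EMG1 on its own strand and LPCAT3 on the other. The strand setting of the counting was not stated in what was used here, so reads in shared stretches are uncertain.

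C3, the component on which all routes converge, differed most between libraries. Its counts were 776 in invasive 1 and 784 in invasive 2, against 659 in control 1 and 12388 in control 2. That is 50.2 and 56.7 CPM in the invasive libraries, and 37.0 and 802 CPM in the controls. The other 3 libraries thus lay within a range of 37.0 to 56.7 CPM and control 2 lay far above it. C3 was 1.36 times as high in invasive 1 as in control 1 (1.22 to 1.51) and 0.0707 times as high in invasive 2 as in control 2 (0.0657 to 0.0760), a 14.1-fold lower level. Control 2 had 21.7 times the level of control 1 (20.1 to 23.5), and invasive 2 had 1.13 times that of invasive 1 (1.02 to 1.25). Among the 14231 genes that passed the filter on low counts, C3 had the 5th lowest log2 difference in pair 2 (-3.82) and the 8th highest difference of control 2 over control 1 (4.43). As group means, C3 had 53.4 ± 4.61 CPM in invasive and 420 ± 541 CPM in control populations (SD, n = 2 each). A sense intronic transcript inside C3, CTD-3128G10.7 (chromosome 19, 6716386 to 6717742), had 0 counts in invasive 1 and 8 in invasive 2, against 3 in control 1 and 31 in control 2.

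CFB, the protease subunit of the alternative route's convertase, had 9 and 2 counts in invasive 1 and 2, against 10 and 6 in control 1 and 2. These are 0.582 and 0.145 CPM in the invasive libraries, and 0.561 and 0.389 CPM in the controls, and no difference between them was detectable at this depth. Control 2, with the highest C3, had 0.692 times the CFB level of control 1 (0.207 to 2.10), an interval that includes 1. CFB lies on chromosome 6 at 31945650 to 31952084. GENCODE 29 annotates a further gene on the same strand, AL645922.1 (31927698 to 31952048), over nearly all of it, which is not analysed here. AL645922.1 also overlaps C2 (31897785 to 31945672). How reads shared by overlapping genes, or fitting several genes such as C4A and C4B, were counted was not stated in what was used here. The CFB, C2 and C4 levels are therefore uncertain. CFI and CD59 overlap further GENCODE 29 genes on their strand (AC126283.2 and AL049629.2), also not analysed here, and the same limit holds for them.

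**Figure D2:**
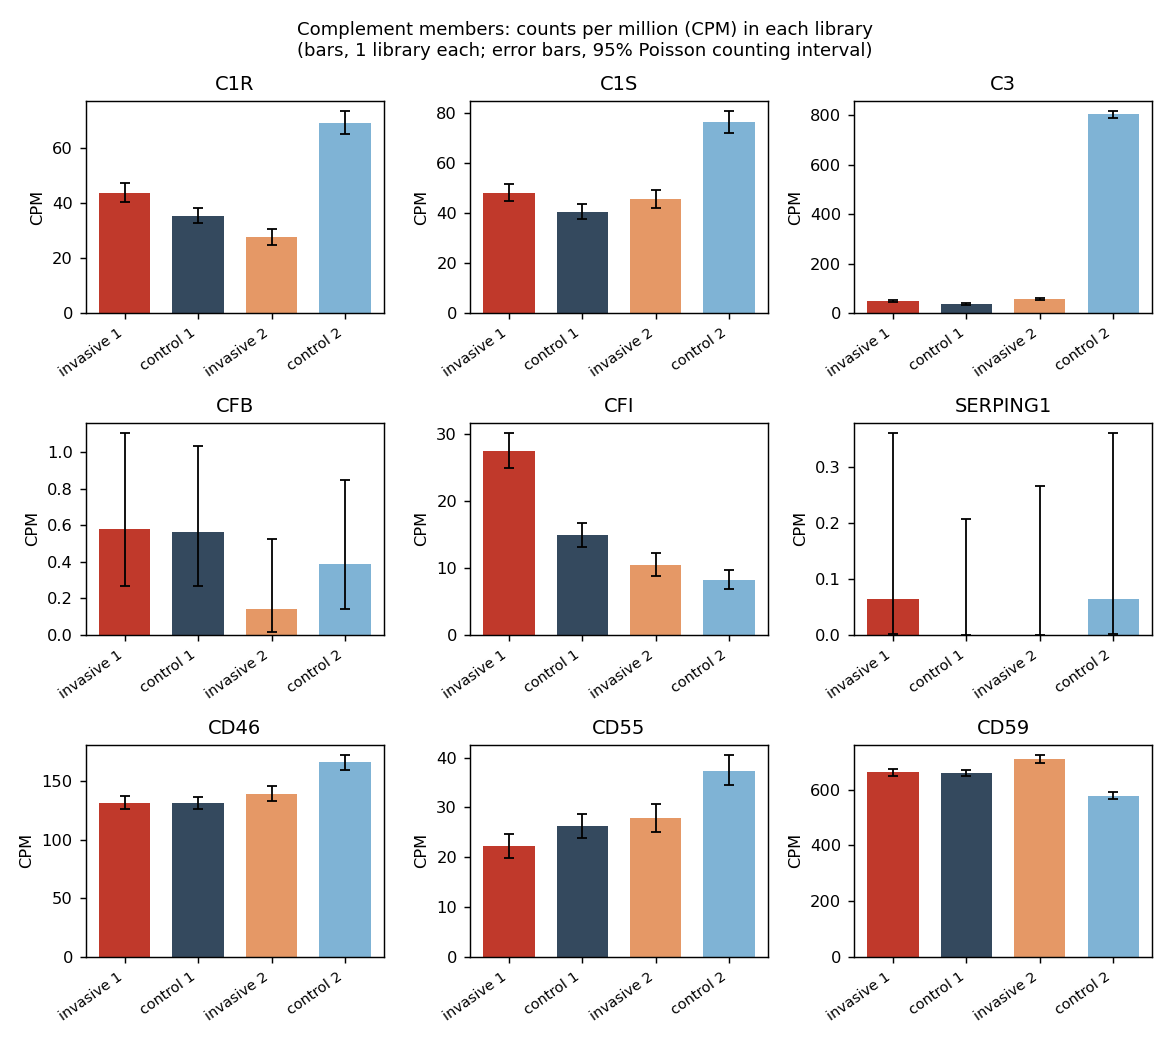
CPM of the 9 complement members in each library, as bars from 0 with 95% Poisson counting intervals, each panel on its own scale and invasive left of its control. Control 2 has the highest bar for C3 (802 CPM), C1R, C1S, CD46 and CD55, and the lowest for CD59 (578 CPM) and CFI (8.16 CPM).

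Of the soluble regulators, CFI encodes factor I, the protease that inactivates C3b and C4b with the help of cofactors. CFI had 27.4 CPM in invasive 1 and 10.4 CPM in invasive 2, against 14.9 CPM in control 1 and 8.16 CPM in control 2. It was higher in the invasive library of each pair, by 1.84 times in pair 1 (1.58 to 2.16) and 1.28 times in pair 2, where the interval includes 1 (0.998 to 1.63). The groups still overlapped, because invasive 2 lay below control 1. Both libraries of pair 2 were lower than those of pair 1: invasive 2 had 0.380 times invasive 1 (0.312 to 0.460), and control 2 had 0.549 times control 1 (0.440 to 0.681). CFI was lowest in control 2, where C3, C1R and C1S were highest. SERPING1, the inhibitor of C1R and C1S, had 1 count in invasive 1 and 0 in invasive 2, against 0 in control 1 and 1 in control 2. Taken as 3 counts, the limit that a count of 0 allows is 0.217 CPM in invasive 2 and 0.168 CPM in control 1. U87MG libraries with C1R and C1S at 27.5 to 76.3 CPM held at most 1 count of their inhibitor.

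The membrane regulators varied less. CD46, a cofactor for factor I, had 132 CPM in invasive 1 and 139 CPM in invasive 2, against 131 CPM in control 1 and 166 CPM in control 2. Its pair 1 ratio of 1.00 (0.947 to 1.07) includes 1, and its pair 2 ratio was 0.839 (0.790 to 0.890), with control 2 highest. CD55, which speeds the decay of C3 convertases, had 22.2 CPM in invasive 1 and 27.8 CPM in invasive 2, against 26.2 CPM in control 1 and 37.4 CPM in control 2. It was lower in the invasive library of each pair, by ratios of 0.846 (0.734 to 0.975) and 0.744 (0.652 to 0.848), although invasive 2 lay above control 1. CD59, which blocks assembly of the membrane attack complex, had 662 CPM in invasive 1 and 711 CPM in invasive 2, against 660 CPM in control 1 and 578 CPM in control 2. CD59 was the only member whose groups did not overlap in CPM, but the ratio of invasive 1 to control 1 was 1.00 (0.977 to 1.03), and with TMM-scaled CPM invasive 1 lay below control 1 (log2 difference -0.029), so the groups overlap. In pair 2 its ratio was 1.23 (1.195 to 1.27). Per length, CD59 stood at 4.23, 4.30 and 4.24 times CD46 in invasive 1, invasive 2 and control 1, and at 2.93 times in control 2.

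**Figure D3:**
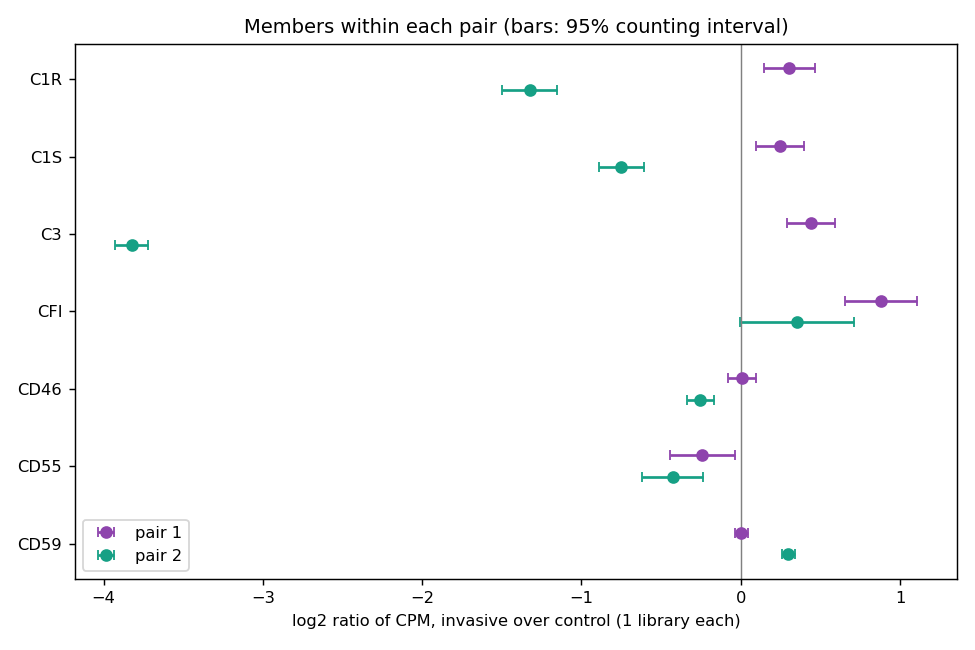
Log2 ratio of CPM, invasive over control, for the 7 members that passed the filter on low counts, with pair 1 and pair 2 as separate points and 95% counting intervals as bars. C1R, C1S and C3 lie right of 0 in pair 1 and left of it in pair 2, CFI lies right of 0 in both pairs, and CD55 left of it in both.

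Across members, 7 passed the filter (C3, C1R, C1S, CFI, CD46, CD55 and CD59), and CFB and SERPING1 did not. Of the 7, 2 were higher in the invasive library of both pairs (CFI and CD59), 1 was lower in both (CD55), and 4 went opposite ways (C3, C1R, C1S and CD46). With TMM-scaled CPM the pair 1 differences of CD59 and CD46, near 0 on either scale, are -0.029 and -0.027, so that CD59 goes opposite ways and CD46 is lower in both pairs. Over all 14231 genes tested, 34.7% went opposite ways. For 1 of the 7 both invasive levels were above both control levels, and for 0 both were below, shares that were 23.7% and 19.7% over all genes. In pair 2, 2 of the 7 (C3 and C1R) were at least 2-fold lower in the invasive library, against 2.05% of all genes, and 0 of the 7 were at least 2-fold higher, against 4.36%. In pair 1, 0 of the 7 were at least 2-fold higher and 0 at least 2-fold lower, against 3.23% and 0.899% of all genes. Of control 2 over control 1, 1 of the 7 (C3) was at least 2-fold higher and 0 were lower, against 2.78% and 1.81%. Of invasive 2 over invasive 1, 0 were at least 2-fold higher and 1 (CFI) was lower, against 1.93% and 1.67%. The members were chosen on these differences, so nothing is read from the counts. The fit across all genes, edgeR's quasi-likelihood model blocked by pair, gave log2 fold changes of -1.75 ± 2.20 for C3, -0.52 ± 0.55 for C1R, -0.27 ± 0.27 for C1S and 0.62 ± 0.18 for CFI (estimate ± SE). CD46, CD55 and CD59 had -0.14 ± 0.10, -0.35 ± 0.12 and 0.13 ± 0.12. The median of the 7 was -0.27, against 0.01 over all genes.

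The large differences rested largely on control 2, and that of C1R on invasive 2 as well. Without control 2, in a fit with no block, the log2 fold changes were 0.50 for C3, -0.02 for C1R and 0.17 for C1S. Without invasive 2 they were -3.08, -0.28 and -0.30. Without invasive 1 that of CFI was -0.18, and without control 1 or invasive 2 it was 1.2045 or 1.22. With no block, these fits set libraries of different pairs against each other. Within pairs CFI was 1.84 and 1.28 times its control, the latter with an interval that includes 1. CD55 kept a negative value without any 1 library, from -0.59 without control 1 to -0.10 without control 2.

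Most of the listed genes of the interleukin and NF-kB pathways, which can induce C3 in many cell types, were also high in control 2. IL1A was instead highest in invasive 2 (9.54 CPM, against 5.50 CPM in control 2). CCL2 was highest in invasive 1 (10.7 CPM, against 9.39 CPM in control 2). IL1B, which encodes interleukin-1 beta, had 12.1 CPM in invasive 1 and 29.6 CPM in invasive 2, against 15.9 CPM in control 1 and 572 CPM in control 2. CSF3, a granulocyte growth factor, had 21.1 and 12.7 CPM in invasive 1 and 2, against 25.8 and 907 CPM in control 1 and 2. IL6, a cytokine of the acute phase response, had 3.94 and 7.38 CPM in the invasive libraries, against 2.86 and 53.4 CPM in the controls. The neutrophil chemokine CXCL8 had 30.6 and 97.9 CPM in the invasive libraries, against 9.32 and 527 CPM in the controls. NFKBIA, the inhibitor that NF-kB itself induces, had 58.0 and 50.04 CPM in invasive 1 and 2, against 34.97 and 111 CPM in control 1 and 2. The list of 12 such genes summed to 182 and 267 CPM in invasive 1 and 2, and to 128 and 2358 CPM in control 1 and 2. Of its 11 tested genes 9 were at least 2-fold lower in invasive 2 than in control 2, against 2.05% of all genes, and 0 were 2-fold lower in invasive 1 than in control 1, against 0.899%. In the fit over both pairs edgeR called 0 of the 11 at a Benjamini-Hochberg adjusted p under 0.05, against 0.274% of all genes (0.239% higher and 0.0351% lower). Of the 11, 0 had an edgeR unadjusted p under 0.05, against 18.2% of all genes. DESeq2 called 0 of those to which it gave an adjusted p, against 171 of 12299 genes. IL1B, CSF3, IL6, CXCL8 and NFKBIA had log2 fold changes of -2.55 ± 1.92, -3.25 ± 3.30, -1.59 ± 1.25, -0.58 ± 2.04 and -0.24 ± 0.70. The list was chosen with earlier results of these data known, so nothing is read from how many of its genes were lower. Without control 1, control 2 is the only control. In that fit, with no block, IL1B, CSF3, IL6, CXCL8 and NFKBIA had log2 fold changes of -4.79, -5.75, -3.25, -3.04 and -1.05. Without control 2 these were 0.35, -0.64, 0.94, 2.75 and 0.59. With no block, that fit sets invasive 2 against control 1 too. Within pair 1 the log2 difference of IL1B was -0.40. Whether these factors have a part in the C3, C1R and C1S levels was not tested.

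Interferon genes did not stand far apart in control 2. IFIT3, MX1, OAS1 and GBP1 had their highest CPM there, at 1.27 to 1.35 times control 1. The rest of those considered did not. IRF1, an interferon-induced transcription factor, had 26.0 and 23.9 CPM in the invasive libraries, against 18.9 and 23.3 CPM in the controls. IFIT1, an antiviral protein gene, had 7.11 and 4.77 CPM in the invasive libraries, against 6.40 and 3.56 CPM in the controls. The 11 interferon genes considered summed to 215 and 182 CPM in invasive 1 and 2, and to 158 and 174.5 CPM in control 1 and 2. STAT2 was the largest part of the sum, at 101 and 88.1 CPM in the invasive libraries, against 68.9 and 68.3 CPM in the controls. Of the 11, edgeR called 0, against 0.274% of all genes, and DESeq2 called 0, against 171 of 12299 genes. DESeq2 gave an adjusted p to 19 of the 22 tested genes of this list and the interleukin list together. An edgeR unadjusted p under 0.05 was found for 3, against 18.2% of all genes. Of these, 2 were higher (STAT2 and ISG15) and 1 was lower (OAS1). In each pair 1 of the 11 (OAS1) was at least 2-fold lower in the invasive library, against 0.899% of all genes in pair 1 and 2.05% in pair 2.

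The protein-coding genes whose pattern over the 4 libraries was closest to that of C3 were MMP3, IL6, CXCL2, NFKBIZ and PTGS2. Likeness was the Euclidean distance between log2 CPM values centred on each gene's mean over the 4 libraries, which was 0.58, 0.73, 0.81, 0.89 and 1.10 for these genes. MMP3, a matrix metalloproteinase, had 222 and 373 CPM in invasive 1 and 2, against 153 and 3183 CPM in control 1 and 2. NFKBIZ, a nuclear regulator of NF-kB, had 20.5 and 18.4 CPM in the invasive libraries, against 13.6 and 148 CPM in the controls. For C1S the nearest genes were MAN1A1, TTC39B, PTBP2, PPAP2B and VAV3, at distances of 0.06 to 0.10, but 808 protein-coding genes lay within a distance of 0.5 of C1S and 0 lay as near to C3. For CD59 the nearest were COMMD7, ZC2HC1A, WDR83OS, RABEPK and GYS1, and 8229 lay within that distance, since most genes varied little. CFB was not ranked, having failed the filter.

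**Figure D4:**
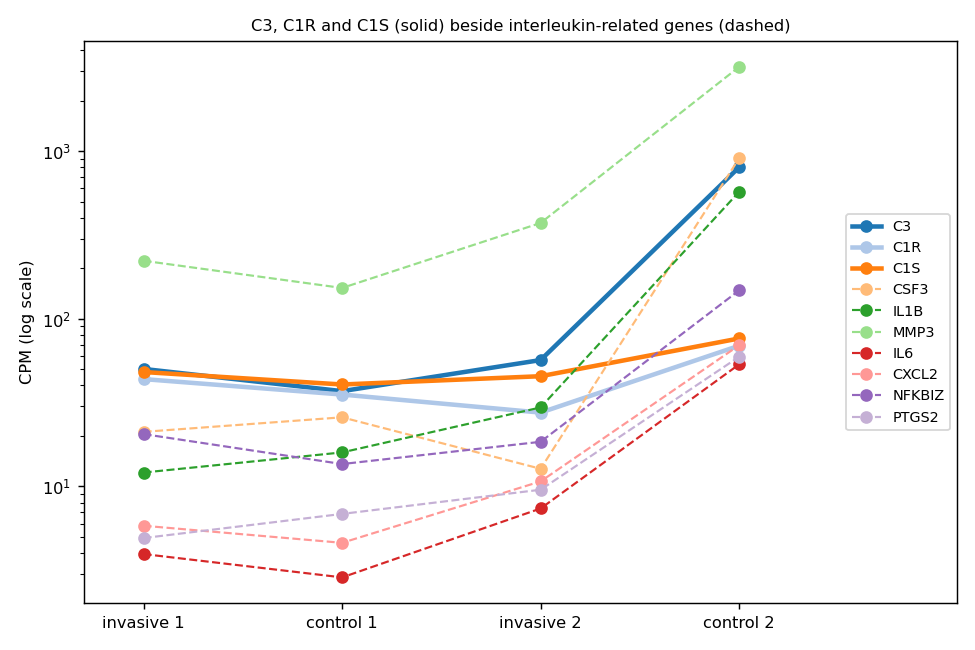
CPM on a log scale in each library for C3, C1R and C1S (solid) and for CSF3, IL1B and the 5 genes nearest in pattern to C3 (dashed); lines join the values of 1 gene and mark no order. C3, CSF3, IL1B, MMP3, IL6, CXCL2, NFKBIZ and PTGS2 are highest in control 2.

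Other complement genes were considered by a list of textbook roles. Of 49 on it, 37 were in all 4 tables and 10 passed the filter on low counts. The other 27 had at most 8 counts in any library. These include the classical components C4A (1 and 2 counts in invasive 1 and 2, 1 and 0 in control 1 and 2) and C2 (7 and 3 counts in invasive 1 and 2, 3 and 5 in control 1 and 2). CFD, the protease that activates factor B, had 0 in every library, and the terminal components C6, C7, C8G and C9 had at most 3. C5 was present, at 12.4 and 9.18 CPM in invasive 1 and 2, against 9.99 and 7.64 CPM in control 1 and 2. CLU, clusterin, an inhibitor of the terminal complex with other roles besides, had 460 and 475 CPM in the invasive libraries, against 473 and 396 CPM in the controls.

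None of the 10 passed the test. The fit called 0 (edgeR, adjusted p under 0.05), against 0.274% of all genes. DESeq2 gave 8 of the 10 an adjusted p and called 0, against 171 of 12299 genes. An edgeR unadjusted p under 0.05 was found for 2, a share that was 18.2% over all genes. The median log2 fold change was 0.09, against 0.01 over all genes. C5AR2, a receptor for C5a, had 54 and 71 counts in invasive 1 and 2, against 15 and 29 in control 1 and 2. That is 3.49 and 5.13 CPM in the invasive libraries and 0.842 and 1.88 CPM in the controls, a log2 fold change of 1.69 ± 0.32 (edgeR adjusted p = 0.0968). ITGAX, a subunit of complement receptor 4, had 11.6 and 9.18 CPM in the invasive libraries, against 15.6 and 19.6 CPM in the controls. Its log2 fold change was -0.77 ± 0.20 (edgeR adjusted p = 0.147), while ITGB2, its partner subunit, had 3 and 5 counts in invasive 1 and 2 and 1 and 2 in control 1 and 2. Both kept their direction without any 1 library, from 1.18 to 2.31 for C5AR2 and -0.96 to -0.62 for ITGAX.

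C3AR1, the receptor for C3a, went opposite ways in the pairs. It had 14.0 CPM in invasive 1 and 5.21 CPM in invasive 2, against 6.68 CPM in control 1 and 11.3 CPM in control 2. C1RL had 15.3 and 11.8 CPM in invasive 1 and 2, against 10.8 and 15.99 CPM in control 1 and 2. The remaining tested genes were CFP, CPN2, THBD and C5AR1, at 0.561 to 7.19 CPM, with log2 fold changes from -0.36 to 0.52.

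Microglia and liver cells are other sources of complement. The 8 microglial markers in all tables summed to 35.6 and 19.6 CPM in invasive 1 and 2, and to 25.2 and 16.1 CPM in control 1 and 2. Of these markers, CSF1R, TMEM119 and CD68 passed the filter on low counts. TMEM119 had 14.3 and 7.16 CPM in invasive 1 and 2, against 2.19 and 3.11 CPM in control 1 and 2, with a log2 fold change of 1.95 ± 0.39 (edgeR adjusted p = 0.117). DESeq2 called it, 1 of the 3, against 171 of 12299 genes, and edgeR called 0, against 0.274% of all genes. P2RY12 was at 0 and PTPRC, CX3CR1, CD14 and ITGAM had at most 8 counts. Of the liver markers, ALB had 1 to 3 counts and APOA1 at most 2. SERPINA1 had 3.17 and 1.52 CPM in invasive 1 and 2, against 0.898 and 0.842 CPM in control 1 and 2, with a log2 fold change of 1.37 ± 0.40 (edgeR adjusted p = 0.171). The part of any of these cells in the complement levels was not tested. The 7 astrocyte markers summed to 287 and 265 CPM in invasive 1 and 2, and to 303 and 220 CPM in control 1 and 2, mostly from GJA1, with GFAP at 2 to 4 counts. In bulk libraries fewer cells with a transcript and less transcript per cell cannot be told apart, and that holds for every level given here.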

How the data were processed

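Per the labels' protocols, polyadenylated RNA was made into strand-specific libraries, 1 for each of 4 U87MG populations. The authors deposited raw read counts per Ensembl gene, not normalized, and also a score per gene, which is a count the authors normalized and rounded to whole numbers, by a method that no source used here states. The score served in 1 alternative. The submitters' processing notes name the build GRCh38 and, with no role stated, DESeq2, HTSeq, Bowtie, TopHat2 2.0.12 and bcl2fastq 1.8.4.

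The 29387 genes in all 4 raw tables were joined. CPM used each library's total count of 13829871 to 17817756. As a limit for a count of 0, 3 counts were taken, which are 0.168 to 0.217 CPM. The 95% Poisson interval of a count of 0 reaches higher. Log2 differences used a prior count of 2. Exon lengths and strands came from GENCODE 29 (GRCh38, 28848 genes matched by ID). Intervals are exact (Poisson, or binomial for ratios), at 95%, and cover counting error only. Genes were filtered with filterByExpr by group (minimum count 10, total 15), leaving 14231, and tested with edgeR 4.0.16 (R 4.3.3, TMM, quasi-likelihood, robust, two-sided, Benjamini-Hochberg at 0.05), with the pair as a block because the design text pairs the libraries. This leaves 1 residual degree of freedom, to which the fit adds a median of 5.453 prior ones, borrowed across genes. Deviations of same-numbered libraries correlated (r = 0.283). DESeq2 1.42.0 was an alternative. The procedure was checked on simulated counts.

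Some listed genes are not reported here and were left out of the list counts. Members, lists and the rule for named genes were chosen with earlier results of these data known. Named were all members, filtered complement genes, 7 interleukin and interferon genes, and the 5 genes nearest in pattern to C3, C1S and CD59. Other genes named with values are markers, low-count complement genes and further interleukin and interferon genes, chosen after their values were seen.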

Additional observations from a re-analysis of the deposited data

Results flagged for a closer look

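The log2 difference between invasive and control library had opposite signs in the 2 pairs for 7 of 26 genes checked, each past its counting interval in both pairs. The 26 were chosen with earlier results of these data known, so nothing is read from this count. Its share over all genes was not computed, and without the interval condition 34.7% of the 14231 tested genes went opposite ways. The difference between pairs was not tested, since each pair has 1 library a group. C3 had 0.44 in pair 1 and -3.82 in pair 2, which differ by -4.26. C1R had 0.30 and -1.32 (-1.63 apart), and C1S had 0.25 and -0.75 (-0.99 apart). Among other complement genes, C1RL had 0.50 and -0.44 (-0.93 apart) and C3AR1 had 1.05 and -1.09 (-2.15 apart). CXCL8 had 1.70 and -2.43 (-4.13 apart), and NFKBIA had 0.73 and -1.15 (-1.88 apart).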

How the results depend on the processing

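Over all genes, 39 were called in the fit with the pair as a block, against 2 with no replicate block, 89 with RLE size factors, 1453 with no filter on low counts (of 25577 tested) and 171 with DESeq2. Leaving out 1 library, with no block, gave 4 to 170 calls: 27 without invasive 1, 170 without control 1, 8 without invasive 2 and 4 without control 2. No filter called 2 other complement genes (C5AR2 higher, ITGAX lower) and 4 interleukin or interferon genes, against 0 of each in the filtered fit. Leaving out 1 library leaves 1 library in a group, whose spread is taken from the other group, so calls for these lists are not given there. The counts over all genes without 1 library carry the same limit. The remaining settings called 0 of either list. The cause of these shifts was not tested. The median of all genes moved by under 0.1 log2 units in each setting.

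Signs changed for genes near 0 or resting on 1 library. Fits without 1 library have no block, so differences in level between the pairs also enter them. With no filter C1RL had -0.0079 and C3AR1 -0.013, and with DESeq2 C3AR1 had -0.029. Leaving out 1 library gave ranges that cross 0 for C1RL (-0.25 to 0.29), C3AR1 (-0.81 to 0.62), CFP (-0.37 to 0.59), CLU (-0.050 to 0.23) and THBD (-0.77 to 0.055). The same holds for IFIT1 (-0.14 to 0.73), IL1B (-4.79 to 0.35) and IL6 (-3.25 to 0.94). It also holds for CXCL8 (-3.14 to 2.75) and NFKBIA (-1.05 to 0.59). The last 4 of these were positive without control 2, a fit that sets invasive 2 against control 1 too. Within pair 1 IL1B was lower in the invasive library (-0.40), and IL6, CXCL8 and NFKBIA were higher (0.45, 1.70 and 0.73). Of 56 recomputed log2 fold changes of members, 49 moved by less than the spread between pairs and 7, all of CFI or CD55 without a library, moved further. That spread is each gene's own, so a member whose pairs differ widely can hardly move further. Members changed sign too: without control 2, C3 went from -1.75 to 0.50, C1S from -0.27 to 0.17 and CD46 from -0.14 to 0.01. Without invasive 1, CFI went from 0.62 to -0.18. That fit sets invasive 2 against the controls of both pairs. Within its own pair CFI was higher in the invasive library, by 0.88 in pair 1 and 0.35 in pair 2, where the counting interval includes 0. Of 52 recomputed differences within a pair, 51 stayed within counting error. The exception was CD59 in pair 2 with the authors' normalized values, at 0.37 in place of 0.30. CFB and SERPING1 have no such value in pair 2. With 2 libraries a group and 1 residual degree of freedom, small differences are not resolved.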
